A study of Arabidopsis thaliana with 8 samples.

Results

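GID1A, GID1B and GID1C are the 3 genes of Arabidopsis thaliana that encode gibberellin receptors. They were followed through the 1 probe set that the array's annotation lists for each: 259302_at for GID1A (locus AT3G05120), 251200_at for GID1B (AT3G63010) and 246782_at for GID1C (AT5G27320). They are 3 of the 13350 genes to which the annotation gives a probe set of their own, among 22746 probe sets apart from array controls. They were picked by name as a gene family, with earlier results of these data known. The GA4 group was made up of 4 arrays from shoots of ga1-3 seedlings cut 1 h after a spray with 2 µM GA4, a bioactive gibberellin. The water group, its control, was made up of 4 arrays from shoots of ga1-3 seedlings handled the same way with water. In both groups the seedlings were 8 days old, carried ga1-3 in the Ler background, had grown in continuous light at 22 °C on medium with 2% sucrose, and were sprayed whole. The mutant makes very little gibberellin of its own, and neither wild-type nor unsprayed seedlings were measured, so the comparison is of added hormone with none in a hormone-poor plant. The study asked which genes answer early to gibberellin.

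GID1 proteins are soluble receptors of the nucleus and cytoplasm. A GID1 protein that has bound a bioactive gibberellin closes over the hormone and takes hold of a DELLA protein, a repressor of growth. The F-box protein SLY1 then marks the DELLA protein for breakdown, and the genes that DELLA proteins held back or kept up change their expression. Gibberellin is also known to feed back on its own pathway, with transcripts of synthesis enzymes and of receptors among those lowered when the hormone is ample.

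Each array gave 1 MAS5 signal per probe set, a brightness value in arbitrary units scaled to a common mean, and log2 differences are GA4 minus water throughout. Signals of different probe sets depend on their own probes, so the levels of the 3 receptors are given separately and not ranked against each other. In both treatments the arrays fell into 2 sets, replicates 1 and 2 against replicates 3 and 4, along a first principal component that held 60.0% of the variance. Ratios of 3′ over 5′ signal, which rise as labelled RNA gets shorter, could be taken from 6 pairs of control probe sets, 2 pairs each for actin, GAPDH and ubiquitin. In 3 of the 6 pairs every array of replicates 1 and 2 was above every array of replicates 3 and 4: 2.72 to 6.81 against 1.50 to 1.76 for 1 actin pair, 2.13 to 5.43 against 0.958 to 1.14 for 1 GAPDH pair, and 1.66 to 4.17 against 1.21 to 1.39 for 1 ubiquitin pair. In the other 3 the sets overlapped: 3.67 to 13.6 against 3.03 to 5.63 for actin, 0.929 to 1.34 against 0.829 to 0.982 for GAPDH, and 1.30 to 2.80 against 1.32 to 1.59 for ubiquitin. The part of these differences in any result below was not tested, and values are therefore also given within each of these sets of 4 arrays. Of 8 shoot and 8 root markers listed, 3 and 2 had a named probe set. The group means of the leaf genes RCA and LHCB4.1 were 14.27 to 14.48 on the log2 scale, past the filter on dim probe sets (a mean log2 signal of 6.78 over all 8 arrays). Those of the root hair genes EXPA7 and EXPA18, 5.41 to 6.59, and of the shoot meristem gene CLV3, 2.83 to 2.94, were below it, and since probe sets differ, these levels do not measure how much of each tissue was present.

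GID1A transcript signal was lower on every GA4 array than on any water array, by 1.94- to 4.07-fold within replicate numbers. GID1A had signals of 113, 133, 122 and 139 on GA4 replicates 1 to 4, against 386, 427, 498 and 269 on water replicates 1 to 4. The groups did not overlap, and the lowest water array (replicate 4) lay 0.96 log2 units above the highest GA4 array (also replicate 4). Among the 13648 probe sets past the filter, 1.39% had all GA4 signals below all water signals. In 10% GA4 was below water within all 4 replicate numbers. The 4 GA4 arrays were close together, with a mean log2 signal of 6.98 ± 0.13, against 8.59 ± 0.38 in water (SD, n = 4 each). In a tissue sample, fewer cells that express a gene and less of its RNA per cell cannot be told apart.

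Within replicate numbers, the GID1A difference was −1.77, −1.68, −2.02 and −0.96 log2 units in replicates 1 to 4. The smallest of these, in replicate 4, came with the lowest of the 4 water signals. The mean difference was −1.61, a 3.05-fold lower signal in GA4. The main limma fit had no block and ignores the replicate numbers, since the series' design text states no block. It gave an SE of 0.22, a 95% confidence interval of −2.11 to −1.11 and an adjusted p of 0.0856, which did not pass the threshold of 0.05. The alternative was limma with arrays blocked by replicate number (the paired fit). There GID1A was called lower, with an SE of 0.20, an interval of −2.04 to −1.17 and an adjusted p of 0.00929. With a block on replicates 1 and 2 against 3 and 4 in place of the number, the adjusted p was 0.00648. The paired call was lost without replicate 1 (adjusted p = 0.0638) and without replicate 2 (adjusted p = 0.103), and was kept without replicate 3 or 4.

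GID1B was also lower on every GA4 array, and its water signals split widely by replicate. GID1B had signals of 109, 104, 137 and 159 on GA4 replicates 1 to 4, against 190, 200, 652 and 542 on water replicates 1 to 4. The groups did not overlap, but only 0.26 log2 units separated the highest GA4 array (replicate 4) from the lowest water array (replicate 1). Among the 13648 probe sets past the filter, 1.39% had all GA4 signals below all water signals. Water replicates 3 and 4 were far above water replicates 1 and 2, and GA4 replicates 3 and 4 were the brighter ones of their group too. The mean log2 signal was 6.97 ± 0.29 in GA4 and 8.41 ± 0.94 in water (SD, n = 4 each).

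The GID1B difference was −0.80, −0.94, −2.25 and −1.77 log2 units in replicates 1 to 4, with a mean of −1.44, or 2.71-fold lower in GA4. The unpaired limma fit gave an SE of 0.41, a 95% confidence interval of −2.36 to −0.52 and an adjusted p of 1.00. In the paired fit, the alternative to that main fit, GID1B was called lower. The SE was 0.24, the interval −1.98 to −0.90 and the adjusted p 0.0419, close to the threshold. The adjusted p was 0.0245 with the block on the replicate sets. The paired call was lost without replicate 1 (adjusted p = 0.0674), without replicate 2 (0.135), without replicate 3 (0.0792), without replicate 4 (0.105) and when no filter on dim probe sets was used (adjusted p = 0.111).

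GID1C showed no shift between the treatments that was larger than the spread between arrays. GID1C had signals of 98.5, 105, 94.1 and 88.8 on GA4 replicates 1 to 4, against 71.1, 83.4, 95.9 and 133 on water replicates 1 to 4. All 4 GA4 signals lay inside the range of the water signals. Water replicate 1 was the dimmest array for this gene and water replicate 4 the brightest. The mean log2 signal was 6.59 ± 0.10 in GA4 and 6.54 ± 0.38 in water (SD, n = 4 each).

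GID1C lay below the filter on dim probe sets, which stood at a mean log2 signal of 6.78, so its test comes from the fit over all 22746 probe sets with no filter. Its difference was 0.47, 0.33, −0.03 and −0.58 log2 units in replicates 1 to 4, higher in 2 and lower in 2. The mean was 0.05, with a 95% confidence interval of −0.64 to 0.74 and an adjusted p of 1.00 in the unpaired limma fit, and 0.969 in the paired fit. Over all 22746 probe sets these fits called 0.0044% and 0.0923%. The interval leaves room for changes of either sign, so the gene is not shown to be unresponsive. The sign of the mean turned with quantile normalization (−0.13), with array weights (−0.09), without replicate 1 (−0.093) and without replicate 2 (−0.046), and on leaving out only water replicate 1 (−0.083) or only water replicate 2 (−0.0058).

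**Figure D1:**
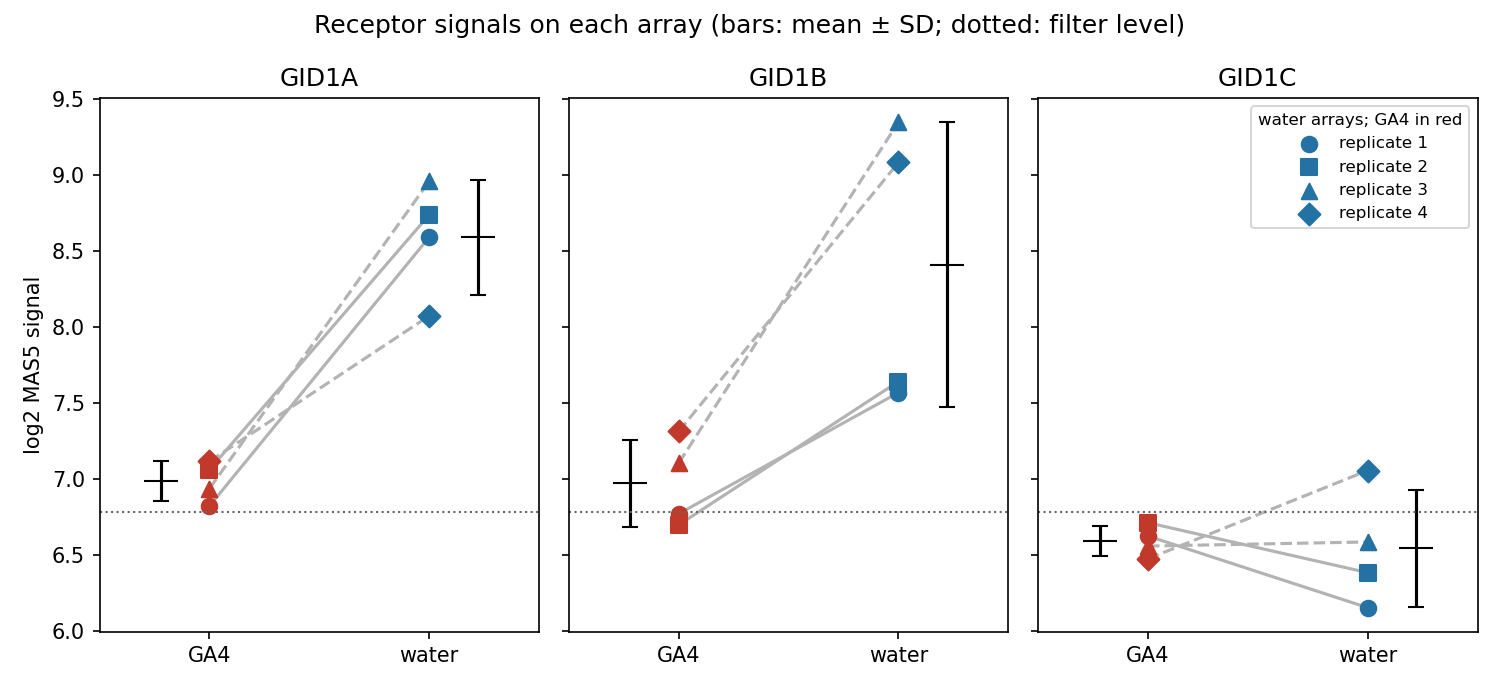
The log2 MAS5 signal of each receptor on each array, with GA4 at the left and water at the right of each panel and a line joining arrays of 1 replicate number (solid for replicates 1 and 2, dashed for 3 and 4). Black bars are the mean ± SD of 4 arrays and the dotted line is the filter level of 6.78. GID1A and GID1B show GA4 arrays below all water arrays, and GID1C shows GA4 arrays within the water range.

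No detection calls were used, so the dim end of these signals needs a yardstick. The array carries 27 control probe sets for Bacillus transcripts, whose median signal was 4.67 to 13.9 on the 8 arrays. The labels do not say whether those transcripts were added. GID1A and GID1B were brighter than all 27 on 7 of 8 arrays each, and GID1C on 6 of 8. On GA4 replicate 1 a single control, at 148, exceeded all 3 receptors, and on water replicate 2 a single control, at 96.8, exceeded GID1C. The GA4 signals of GID1A and GID1B were near the level of the filter, 110 units, and how much of them was background was not tested.

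Within replicates 1 and 2, GID1A had geometric mean signals of 123 in GA4 and 406 in water, and within replicates 3 and 4 it had 130 in GA4 and 366 in water. Its mean difference was −1.72 in the first of these sets and −1.49 in the second, where replicates 3 and 4 were apart at −2.02 and −0.96. GID1A was thus lower in GA4 in both sets, but 2 pairs each do not settle whether the drops were of like size. For GID1B the geometric means were 106 in GA4 and 195 in water within replicates 1 and 2, and 148 in GA4 and 595 in water within replicates 3 and 4. The GID1B difference was thus −0.87 in one set and −2.01 in the other. For GID1C the differences were 0.40 and −0.30. In limma fits of the 2 GA4 and 2 water arrays of 1 set without a block, chosen after the values were seen, GID1A had an adjusted p of 0.187 within replicates 1 and 2 and of 0.140 within replicates 3 and 4. GID1B had 0.506 and 0.00900 there. These small fits called 0.00733% and 0.0659% of all probe sets tested.

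The difference between the sets in the response to GA4 was itself tested with limma, with the replicate number as a block. For GID1B the response in replicates 3 and 4 minus that in replicates 1 and 2 was −1.14 log2 units (SE 0.33, unadjusted p = 0.00633), which did not pass after adjustment (adjusted p = 0.182). In that fit 1926 of the 13648 probe sets had an unadjusted p under 0.05, and 55 were called. With the block on replicate sets in limma, GID1B had an adjusted p of 0.683 and 0 probe sets were called. For GID1A the difference was 0.23 (SE 0.38, adjusted p = 0.827), and for GID1C, in the fit with no filter, −0.70 (SE 0.57, adjusted p = 0.681). GID1B was brighter in replicates 3 and 4 in both groups, and by more in water. Its mean log2 signal in water was 7.60 in replicates 1 and 2 and 9.22 in replicates 3 and 4, while the GA4 means were 6.73 and 7.21.

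**Figure D2:**
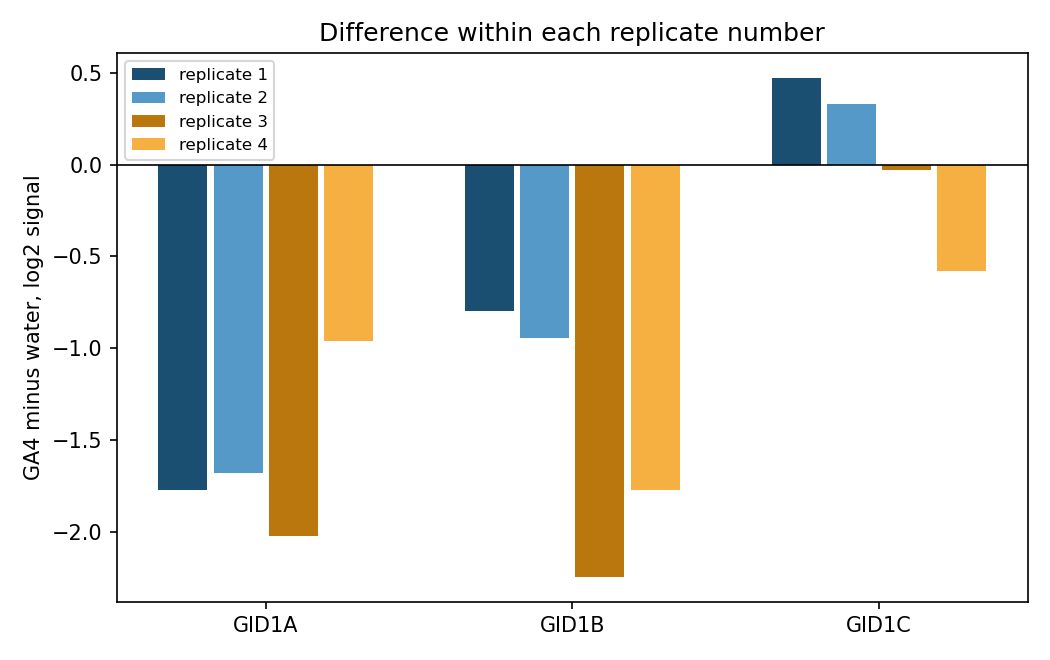
GA4 minus water in log2 signal within each replicate number, as bars from 0, for the 3 receptors. All 4 bars are below 0 for GID1A and GID1B, with the tallest GID1B bars in replicates 3 and 4, and the 4 GID1C bars lie between −0.58 and 0.47.

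The receptors also differed in how much they varied between arrays of 1 treatment. The 1000 probe sets nearest to GID1B in mean log2 signal had a median SD of 0.39 in GA4 and 0.35 in water, and 97% of them had a smaller SD in water than the 0.94 of GID1B. GID1A was more usual in water, where 58% of its own 1000 nearest probe sets had a smaller SD than its 0.38. In GA4 its SD of 0.13 was exceeded by most, with 6.5% of them smaller. For GID1C the SD in GA4, 0.10, was larger than that of 1% of its 1000 nearest probe sets, and 41.5% had a smaller SD in water.

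Whether the receptors responded unequally was asked from the log2 ratio of their signals within each array, which removes anything that scales a whole array. It does not remove a background that adds to each signal. The mean log2 signals of GID1C, 6.59 in GA4 and 6.54 in water, were below the filter level of 6.78. How much of a fall in GID1C could have been seen at that level was not tested. Only changes in this ratio between treatments carry information, since its level depends on the probes. GID1A over GID1C had log2 ratios of 0.20, 0.35, 0.38 and 0.64 on GA4 replicates 1 to 4, against 2.44, 2.36, 2.38 and 1.02 on water replicates 1 to 4. All GA4 ratios were below all water ratios. The response of GID1A minus that of GID1C was −1.66 log2 units, by an exact 2-sided permutation test over the 8 arrays with p = 0.0286, the smallest that 4 against 4 arrays allow, and adjusted p = 0.0429 over the 3 comparisons of receptors.

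GID1B over GID1C had log2 ratios of 0.15, −0.01, 0.55 and 0.84 on GA4 replicates 1 to 4, against 1.42, 1.26, 2.76 and 2.03 on water replicates 1 to 4. These groups did not overlap either. The response of GID1B minus that of GID1C was −1.49 log2 units, with the same exact permutation p = 0.0286 and adjusted p = 0.0429. Permuting within replicate numbers, where 4 pairs cannot give a p below 0.125, gave exactly that value for both, and with any 1 replicate number left out both had an exact permutation p of 0.1, again the smallest possible.

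GID1A and GID1B were not shown to differ in response. Their log2 ratio, GID1A over GID1B, was 0.05, 0.36, −0.17 and −0.20 on GA4 replicates 1 to 4, against 1.02, 1.10, −0.39 and −1.01 on water replicates 1 to 4. The mean change was −0.17 (exact permutation p = 0.800, adjusted p = 0.800). Within replicate numbers the change was −0.97 and −0.73 in replicates 1 and 2, where GID1A had the greater drop, and 0.22 and 0.81 in replicates 3 and 4, where GID1B had. The spread of these 4 values, an SD of 0.83, was several times the mean, and its sign turned without replicate 1 (0.10) and without replicate 2 (0.02).

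**Figure D3:**
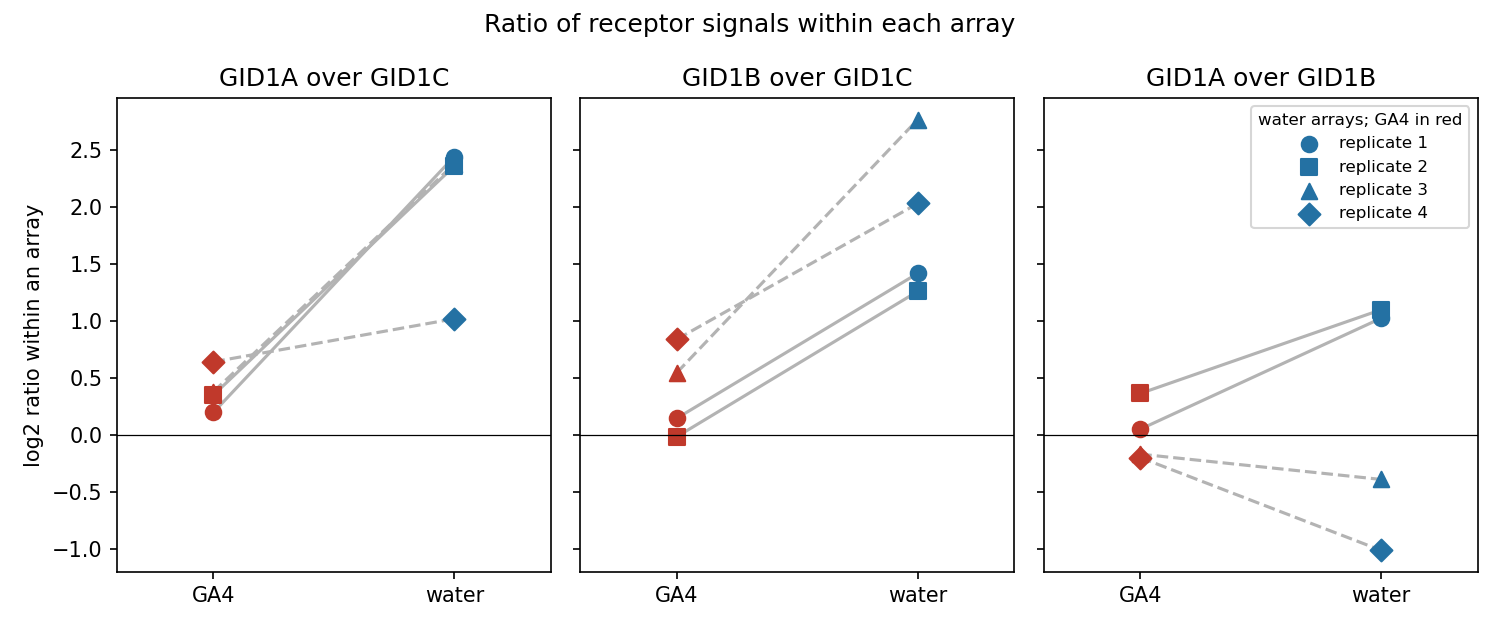
The log2 ratio of 2 receptor signals within each array, with GA4 at the left and water at the right and lines joining replicate numbers (solid for replicates 1 and 2, dashed for 3 and 4). The ratios to GID1C are lower in GA4 in all 4 replicates, and the ratio of GID1A to GID1B is lower in GA4 in replicates 1 and 2 and higher in replicates 3 and 4.

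Few probe sets on the array passed the test, which sets the scale for the receptor calls. Of the 13648 probe sets past the filter, 0.0147% were called in the unpaired fit, 2 in all and neither a receptor. In the paired fit 0.293% were called in either direction, and 0.256% were called lower, 35 in all with GID1A and GID1B among them. The block on the replicate sets called 0.234%. GA4 signals lay wholly below water signals for 1.39% of the 13648, and GA4 was below water in all 4 replicate numbers for 10%. The median difference over all 13648 was 0.01. Only 11 of them had a more negative mean difference than GID1A, and 20 had one more negative than GID1B.

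**Figure D4:**
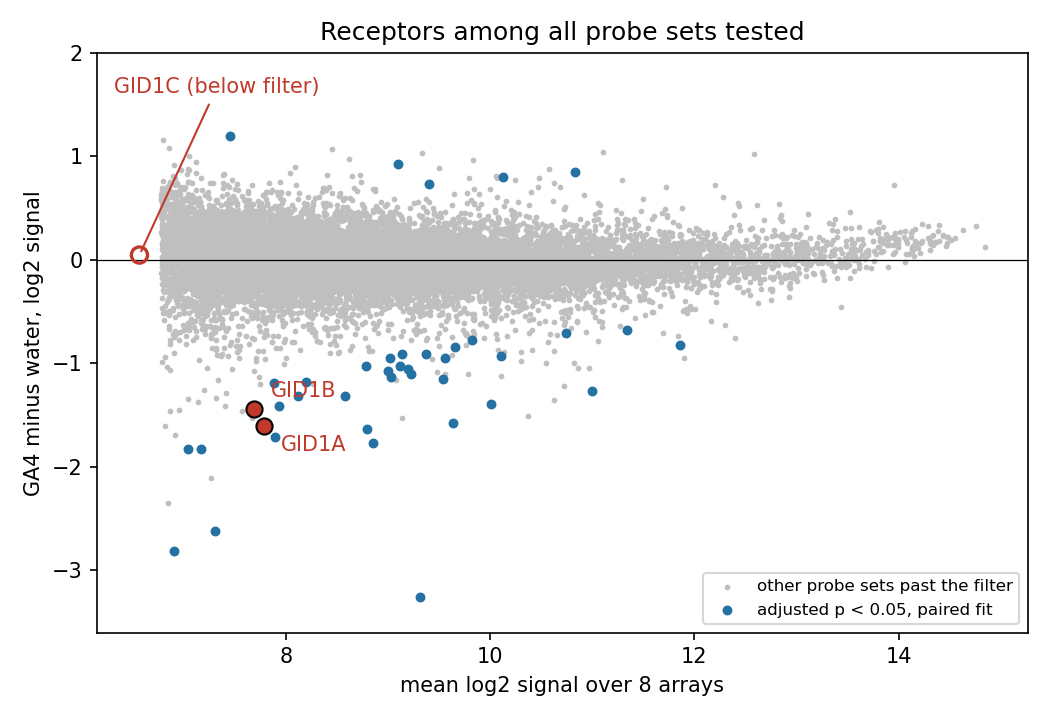
GA4 minus water in log2 signal against the mean log2 signal over 8 arrays for 13648 probe sets past the filter, with those called in the paired fit in blue. GID1A (−1.61) and GID1B (−1.44) lie in the lower fringe at modest signal, and GID1C (0.05, open circle) lies left of the filter level.

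The annotation used here names only part of the rest of the pathway, and it lists no gene for 8730 of the 22746 probe sets. Of 41 loci listed for gibberellin synthesis, inactivation, signalling and downstream action, 6 had a probe set named here, and all 6 passed the filter. None of the 14 synthesis loci and none of the 10 inactivation loci was among the 6, which leaves those loci not analysed here. In the unpaired limma fit 0 of the 6 passed, against 0.0147% of all 13648 probe sets. In the paired fit 2 fell and 0 rose, against 0.256% of all called lower and 0.293% called either way. Their median difference was −0.46, against 0.01 over all 13648 probe sets. It was −0.23 for the 4 signalling genes and −1.25 for the 2 downstream genes. Medians of so few chosen genes do not describe the pathway. This list, like the receptors, was drawn up with earlier results of these data known.

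Among the 4 signalling genes that act on DELLA proteins beside or after the receptors, 0 passed either fit. With 0.0147% (unpaired) and 0.293% (paired) of all 13648 probe sets called, 0 of 4 is no result about these genes. SLY1, the F-box protein that brings DELLA proteins to the breakdown machinery, had a mean log2 signal of 8.18 ± 0.25 in GA4 and 8.83 ± 0.35 in water, a difference of −0.65 (paired limma adjusted p = 0.212). It was lower in 4 of 4 replicates, as were 10% of all 13648 probe sets. Its GA4 signals lay wholly below its water signals, as for 1.39% of all. SNE, a related F-box protein, was at −0.20 and lower in 3 of 4 replicates. SEC and SPY, enzymes that attach sugars to DELLA proteins, were at −0.27 and −0.05. The genes that fell were both downstream. XERICO, which encodes a RING-type protein that raises abscisic acid levels, was 1.58 log2 units lower (adjusted p = 0.00236, paired), and NPF3.1, a transporter of nitrate and gibberellin, was 0.93 lower (adjusted p = 0.0232, paired), each in 4 of 4 replicates. The receptor GID1A and XERICO thus had mean differences that lay close together (GID1A minus XERICO, −0.03), with a paired SE of 0.20 for GID1A and 0.16 for XERICO. By replicate they were less alike. In replicates 1 to 4 XERICO was at −1.16, −1.37, −2.11 and −1.67, against −1.77, −1.68, −2.02 and −0.96 for GID1A. A link between them was not tested.

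**Figure D5:**
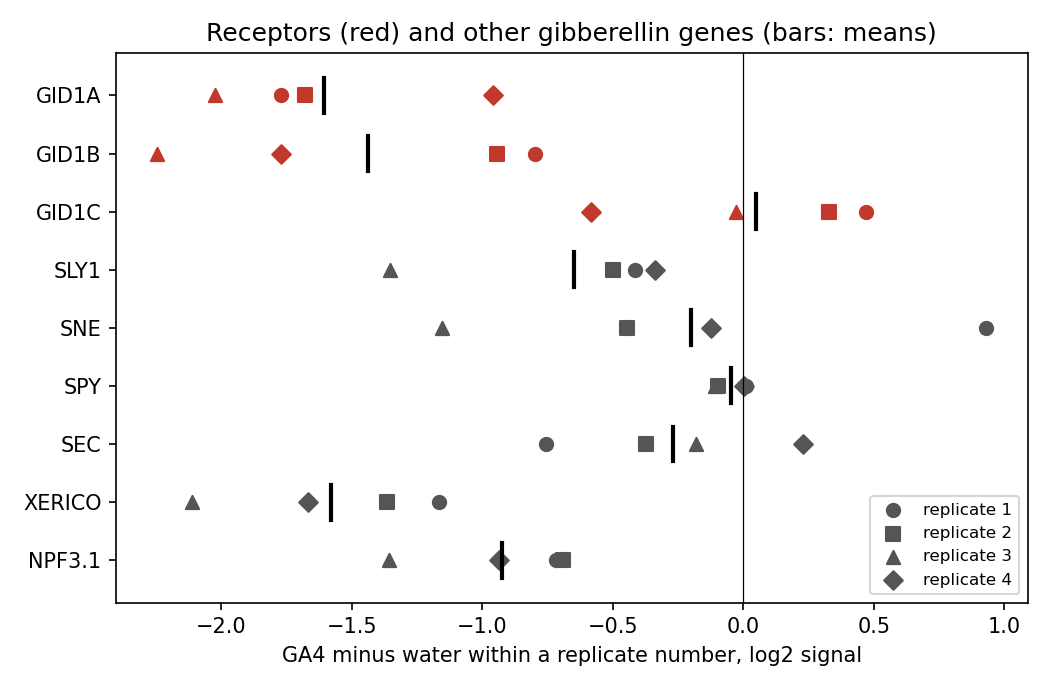
GA4 minus water in log2 signal within each replicate number (symbols) and the mean (black bar) for the 3 receptors in red and the 6 other gibberellin genes in grey. GID1A, GID1B, SLY1, XERICO and NPF3.1 are below 0 in all 4 replicates, and GID1C, SNE, SPY and SEC have replicates on both sides of 0.

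The genes whose pattern over the 8 arrays was most like that of each receptor were taken by Pearson's correlation of log2 signals among the 7335 other probe sets past the filter with 1 listed gene. The arrays share treatment and replicate effects, so these correlations are a description only. For GID1A they were AT1G49750 (r = 0.980), AT5G18840 (r = 0.969), XERICO (r = 0.946) and AT3G55350 (r = 0.939). All 4 were lower in GA4 in every replicate, but by unequal amounts: AT1G49750 was at −0.37, AT5G18840 at −1.03 and AT3G55350 at −1.03. AT3G55350 had a mean log2 signal of 6.32 in GA4 and 7.35 in water. It was thus past the filter level of 6.78 only through its water arrays. A pick by likeness to a receptor lower on every GA4 array favours such genes, so their direction is no separate result. Over all 13648 probe sets tested, 10% were lower in every replicate and the paired fit called 0.293%. AT5G18840, annotated as a sugar transporter, passed the paired limma fit with XERICO (adjusted p = 0.0119 for AT5G18840), and the other two did not.

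For GID1B the nearest genes were AT1G71970 (r = 0.960), AT1G30910 (r = 0.931), AT1G70985 (r = 0.924) and AT1G26740 (r = 0.919). All 4 were lower in GA4 in every replicate, at −0.81, −0.12, −0.39 and −0.25, and 0 of the 4 passed the paired limma fit (adjusted p 0.0725 to 0.731). Over all 13648 probe sets tested, 10% were lower in every replicate and the paired fit called 0.293%. Here too the pick by likeness favours this direction, which is no separate result. The nearest genes of GID1C were AT3G13120 (r = 0.930), AT1G64590 (r = 0.893), AT3G09200 (r = 0.878) and AT1G32460 (r = 0.877). Their differences ran from 0.05 to 0.24, and 0 of the 4 passed the paired limma fit (adjusted p 0.743 to 0.877). AT1G64590, at 0.24, had a mean log2 signal of 6.95 in GA4 and 6.71 in water. It was thus past the filter level of 6.78 only through its GA4 arrays. With 0.293% of all called, 0 of 4 is no result about the genes nearest to GID1B or GID1C.

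With each replicate number's mean subtracted first, which leaves the 4 differences between treatments, other genes came to the front. AT1G49750 again led for GID1A (r = 0.998), followed by AT4G37240, AT2G27060 and AT1G70820 (r of 0.989 to 0.993). Of these 4, AT4G37240 passed the paired limma fit (−1.07, adjusted p = 0.00894). For GID1B the nearest were AT2G05790, AT1G70985, SCPL45, which encodes a serine carboxypeptidase-like protein, and AT2G07695 (r of 0.989 to 0.997), so that AT1G70985 was named by both measures. Of these 4, SCPL45 passed the paired limma fit (−0.91, adjusted p = 0.0335). For GID1C they were ATRX, AT2G38660, AT3G59650 and AT1G50440 (r of 0.995 to 0.998), none of them named by the first measure. In the paired limma fit 0 of these 4 passed (adjusted p 0.897 to 0.964). That fit called 0.293% of all 13648 probe sets tested. A pick by likeness to the differences of GID1A or GID1B favours genes that fall in every replicate. The calls among the picked genes are therefore no separate result. Between the receptors themselves the correlation was 0.72 for GID1A with GID1B, −0.27 for GID1A with GID1C and 0.34 for GID1B with GID1C, and with the replicate means subtracted 0.90, −0.29 and 0.16. Genes that fall in every replicate can score high by this second measure even where the sizes of their falls differ between replicates. The 0.90 thus does not show that the falls of GID1A and GID1B went together from replicate to replicate.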

How the data were processed

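The authors deposited linear MAS5 signal intensities, 1 value for each probe set on each array, with trimmed means of 500.04 to 500.05. The tool comes from the submitters' processing notes, which give no version. Signals below 1 were set to 1 before log2, and the brightest 60% of the 22746 non-control probe sets by mean log2 signal were tested (13648). Names came from the supplied platform annotation, updated through the TAIR10.1 gene table, and 13513 probe sets had 1 gene. limma 3.58.1 (R 4.3.3; lmFit, eBayes with trend, 2-sided, Benjamini-Hochberg) compared GA4 with water, without and with a replicate block, and was tested on simulated data. The labels name 4 biological replicates per treatment but not what a shared number marks. Same-numbered arrays deviated together from their group means (r = 0.616 to 0.685, above the minimum of 0.1), so both fits are given. Both treatments split into the same 2 sets of replicates, which alone would give such a correlation. It therefore cannot show that a shared number marks a pair, and pairing by number apart from set was not tested. Response differences used exact permutation tests. The number of arrays limits the precision. Genes named are the receptors, the listed gibberellin genes with a named probe set, and 4 genes per receptor by each of 2 measures of likeness. Members and lists were chosen with earlier results of these data known. No sequences or genome positions were used here.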

Additional observations from a re-analysis of the deposited data

How the results depend on the processing

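GID1A and GID1B were lower in GA4 under every alternative run, and what differed was whether they passed in limma. GID1A, which missed the threshold unpaired, passed with array weights (−1.50, adjusted p = 0.0401), with the replicate block (−1.61), with the block on replicate sets (−1.61), with the replicate block and a floor of 16 (−1.61), quantile normalization (−1.69) or no filter (−1.61), and with the replicate block within replicates 1 and 2 (−1.72) or 3 and 4 (−1.49). Leaving out replicates or single arrays gave −1.82 to −1.47. GID1B passed with the replicate block (−1.44), with the block on replicate sets (−1.44), with the replicate block and a floor of 16 (−1.44) or quantile normalization (−1.50), and within replicates 3 and 4 with and without that block (−2.01 in each). Leaving out replicates or arrays gave −1.72 to −1.13. GID1C never passed, and turned negative with quantile normalization (−0.13 in each fit), array weights (−0.090), within replicates 3 and 4 (−0.30 in each fit), and, in each fit, without replicate 1 (−0.093) and without replicate 2 (−0.046). It ran from −0.093 to 0.26 with replicates or arrays left out.

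The 2 unpaired calls became 1 with no filter, 8 with array weights, 40 with the replicate block, 32 with the block on replicate sets, and 42, 20 and 21 with the replicate block and a floor of 16, quantile normalization or no filter. With the replicate block, 574 were called within replicates 1 and 2 and 219 within replicates 3 and 4, against 1 and 9 without it. The blocked fits have 1 residual degree of freedom, so their calls lean on the spread pooled over probe sets. Leaving out replicates or arrays gave 0 to 53 calls. With the replicate block these were 14, 8, 53 and 43 without replicates 1 to 4. The 0 came from the unpaired limma fits without replicate 2 or 3, where 224 and 251 probe sets had an unadjusted p under 0.05.

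The response of GID1A minus that of GID1B was 0.52 within replicates 3 and 4, and −0.50 to 0.10 with a replicate left out. For GID1A minus GID1C (−1.66) and GID1B minus GID1C (−1.49) the permutation within replicate numbers could not reach the threshold, and with a replicate left out these were −2.08 to −1.46 and −1.59 to −1.24. For GID1C the filter of the brightest 50% gave no value. The causes of these changes were not tested. GID1C lay below the filter in both groups, and how much of any receptor's signal was background was not tested.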
